A study of Mus musculus with 66 samples.

Results

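The sites described here are 467 intronic cleavage and polyadenylation (pA) sites, in 402 host genes, that carried no read in control myoblasts and were read after depletion of a PAF complex (Paf1C) subunit. They were taken from 16766 intronic sites among 59578 pA sites listed for the cells by requiring 0 reads in both siCtrl libraries and at least 20 reads over the 5 knockdown libraries together. Silence in siCtrl and the summed knockdown reads therefore chose the sites and are given as a description, with no test.

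The cells were C2C12, a mouse myoblast line that differentiates into myotubes in culture. They were transfected for 48 h with 50 nM of siRNA, either a non-specific control (siCtrl) or an siRNA to Paf1, to Cdc73 or to Ski8 (gene symbol Wdr61). RNA 3' ends were sequenced by 3'READS, which counts reads that end in a poly(A) tail not encoded in the genome (PASS reads), and matched RNA-seq libraries were made. Each assay held 7 libraries, with siCtrl, siPaf1 and siCdc73 in batch 1 and batch 2 and siSki8 in batch 2 alone, so that siSki8 had no replicate. All groups were the same line in the same state and differed in the siRNA. Batch here means the number 1 or 2 at the end of a library's label. The labels do not name separate cultures beyond that number, and p-values measure the spread between these libraries.

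Paf1C travels with RNA polymerase II during elongation. Introns contain many sequences that the cleavage and polyadenylation machinery could use, and U1 snRNP, splicing and elongation are known to limit their use in full-length transcription. A transcript that ends in an intron lacks all downstream exons and may encode a shortened protein or be degraded, and such intronic ends are one form of CDS-APA, alternative polyadenylation that alters the coding region.

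The mm9 reference bases that end at the listed position of 15 of the sites are shown, because these sites carried the most reads, belonged to a host with several sites or separated siPaf1 from siCdc73. Each run holds 30 bases in the direction of transcription. Capitals mark the poly(A) signal hexamer, the element recognised by CPSF, where AATAAA, or else ATTAAA, or else one of 9 variants lay in the run.

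Fn1 site 1 (chr1:71658705-71658734, minus strand): gcaagagtgagaaacatggagatcagcgca
Fn1 site 2 (chr1:71678260-71678289, minus strand): atttgcaatgtcattaaaATTAAAatcaca
Fn1 site 3 (chr1:71688904-71688933, minus strand): tgtattAATAAAgctttacaagtggggaaa
Fn1 site 4 (chr1:71678230-71678259, minus strand): ttttcaagttatttccagagtttaaaacca
Nufip2 site 1 (chr11:77508575-77508604, plus strand): tgctttttAATAAAatactggttcattttg
Nufip2 site 2 (chr11:77506963-77506992, plus strand): tcatcAATAAAggcacagttgatcacataa
Msl2 site 1 (chr9:100981262-100981291, plus strand): tataaagtcacATTAAAaagattactttta
Bcar3 (chr3:122130036-122130065, plus strand): taattttctAATAAActcattttatctaaa
Rgmb (chr17:15956626-15956655, minus strand): catagactaAATATAattgaccaagatcaa
Mll5 (chr5:22942005-22942034, plus strand): cttttaaacATTAAAcatttattcgatgca
Nrp1 (chr8:130887752-130887781, plus strand): agtgaATTAAAgggtttgttattatcgcta
Gtf3c1 (chr7:132803816-132803845, minus strand): cttttAATACAgtcccttttgttaaattta
Smg6 (chr11:74763667-74763696, plus strand): atAATAAAttatatgtatcagatcagagaa
Azi2 (chr9:117952106-117952135, plus strand): ttggATTAAAaatttgcctacacggttcaa
Prkra (chr2:76484197-76484226, minus strand): gaAATACAcacggttagagttgcgttgcta

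Canonical AATAAA lay beside Fn1 site 3, both Nufip2 sites, Bcar3 and Smg6, and ATTAAA beside Fn1 site 2, Msl2 site 1, Mll5, Nrp1 and Azi2. Fn1 sites 1 and 4 held no hexamer of either kind and no variant in the 41 bases that end at the site. The ATTAAA marked for Fn1 site 2 lay across the upstream edge of those bases for site 4 and so was not counted there. Over all 467 sites, 210 (45.0%) had AATAAA in that window, 97 (20.8%) had ATTAAA and no AATAAA, 97 had only a variant (AGTAAA, then TATAAA, then CATAAA, then GATAAA, then AATATA, then AATACA, then AATAGA, then AAAAAG, then ACTAAA) and 63 (13.5%) had none. Only the transcribed strand was searched. AATAAA was found at 41.7% of all 59578 listed sites, at 45.3% of all listed intronic sites and at 53.2% of 3'-most exon sites with at least 20 knockdown reads. The hexamer began at a median of 22 bases before the site. At least 7 A in the 10 bases downstream were present at 2 of the 467 sites.

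The sites were rare among intronic sites but more common there than at 3' ends. Of 3761 intronic sites with at least 20 knockdown reads, 467 (12.4%) had 0 siCtrl reads, against 845 of 22423 3'-most exon sites (3.77%), 19 of 196 internal exon sites (9.69%) and 83 of 671 upstream antisense sites (12.4%). At 3'-most exon sites most of the reads that met this rule lay in siPaf1 batch 2, with 3850 RPM (reads-per-million, normalised to all PASS reads of the library) there and 94.5 to 373 in the other knockdown libraries. Turning the rule around, 100 of 3263 intronic sites (3.06%) had 0 reads in both siPaf1 libraries and at least 20 over the others, and 108 of 3324 (3.25%) had 0 in both siCdc73 libraries. The control libraries together held 17190199 PASS reads, and a count of 0 there allows up to 0.175 RPM (3 counts, counting error only). The threshold of 20 reads corresponds to 0.407 RPM over the 49160731 knockdown reads, so 6.99 siCtrl reads correspond to that level at the depth of the controls.

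Members just inside the thresholds were thinly read. Ahdc1 (chromosome 4, position 132623150) had 0 and 5 reads in siPaf1, 6 and 9 in siCdc73 and 0 in siSki8. Cdt1, a replication licensing factor (chromosome 8, position 125092575), had 3 and 6, 2 and 6, and 3, and 28 members had exactly 20 reads. Just outside, 40 intronic sites had 0 siCtrl and 19 knockdown reads, for example in 1110012J17Rik (0 and 6 in siPaf1, 0 and 13 in siCdc73 and 0 in siSki8) and 2210012G02Rik (9 and 5, 4 and 1, and 0). A further 221 sites with at least 20 knockdown reads had 1 siCtrl read, among them a site in Spp1 (osteopontin) with 1195 knockdown reads and another Fn1 site with 693. The 467 sites had a median of 33 knockdown reads (quartiles 25 and 52), 190 had 20 to 29 reads and 39 had 100 or more.

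Reads at the sites came almost wholly from siPaf1 and siCdc73. Of the 467 sites, 350 were read in siPaf1 batch 1, 417 in siPaf1 batch 2, 353 in siCdc73 batch 1, 429 in siCdc73 batch 2 and 206 in siSki8. Library depth differed, from 5302728 PASS reads in siCdc73 batch 1 to 14340927 in siCdc73 batch 2, and at the depth of the smallest library the expected numbers of sites read were 326, 390, 353, 404 and 167 in the same order. Summed over the sites, the level was 360 and 688 RPM in siPaf1 batches 1 and 2, 627 and 805 in siCdc73 and 65.0 in siSki8. The siSki8 library was thus the lowest of the 5 on every one of these measures, and the siPaf1 and siCdc73 ranges overlapped. Leaving out Fn1, the sums were 299 and 603 for siPaf1, 477 and 636 for siCdc73 and 62.4 for siSki8.

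**Figure D1:**
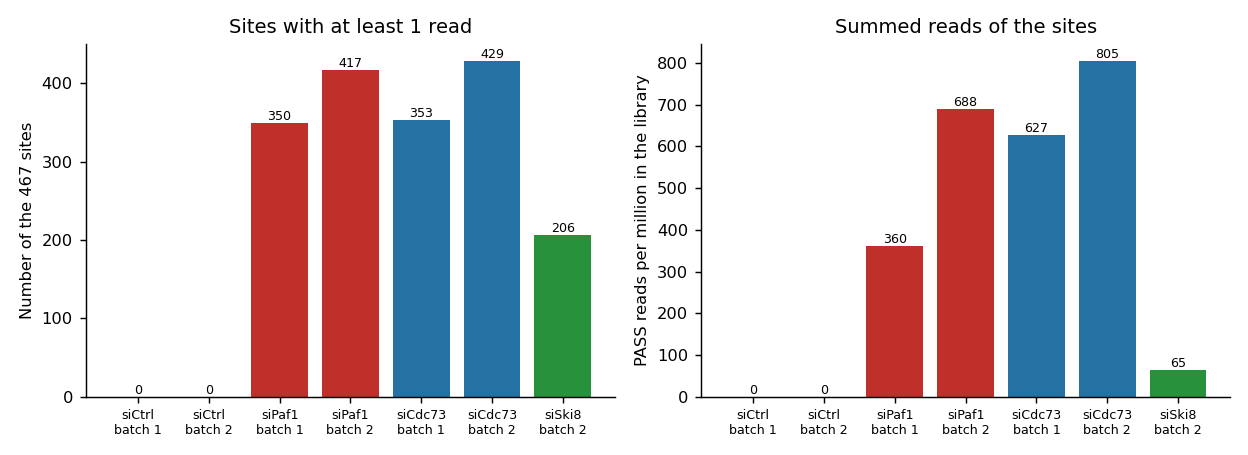
Sites read (left, number of the 467 sites with at least 1 read) and their summed level (right, PASS RPM) in each of the 7 libraries, 1 bar per library. The siCtrl bars are 0 by the rule, the siPaf1 and siCdc73 bars stand at 350 to 429 sites and 360 to 805 RPM, and siSki8 stands at 206 sites and 65.0 RPM.

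Most sites appeared in both knockdowns. At least 1 read was seen in siPaf1 and in siCdc73 at 419 sites (89.7%), in all 4 of their libraries at 244 (52.2%) and in all 5 knockdown libraries at 121 (25.9%). The siPaf1 libraries alone read 19 sites, the siCdc73 libraries alone 18 and siSki8 alone 0. Batch 2 alone gave 45 sites and batch 1 alone gave 0, and within each group the batch 2 library was the deeper one. Of the siSki8 sites, 87 had 1 read, and 30 sites had 5 or more.

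One library needs to be read apart. Transcripts of testis germ cells were abundant in siPaf1 batch 2. Of 24 listed germ cell genes, 22 had sites in the table. Their summed level was 2621 RPM in siPaf1 batch 2, against 7.68 in siPaf1 batch 1, 1.35 and 4.69 in siCtrl, 5.28 and 40.2 in siCdc73 and 4.46 in siSki8. Sycp3, a gene of the list, was read in every library (6 and 12 reads in siCtrl, 58 and 2038 in siPaf1, 22 and 102 in siCdc73 and 4 in siSki8). It gave 58 of the 60 reads of the list in siPaf1 batch 1. The sperm protamine Prm1 had 21481 reads in siPaf1 batch 2, 284 in siCdc73 batch 2, 18 in siCtrl batch 2, 14 in siSki8 and 0 in each batch 1 library. Myoblast markers were present in every library (summed level 1693 to 3218 RPM), led by Des and Vim, while Myod1 had 0 to 8 reads. The part of the germ cell reads in sites not read in siPaf1 batch 1 was not tested.

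Sites seen in siPaf1 batch 1 are therefore given apart. These 350 sites lay in 309 genes and carried 23152 of the 27448 knockdown reads, and 337 of them were also read in siCdc73. The remaining 117 sites, in 112 genes, carried 4296 reads. Of those, 94 were read in siPaf1 batch 2 and 105 in siCdc73. Of the 467 sites, 12 were read in siPaf1 batch 2 and in no other library. The most read of these were in Spata3, a spermatogenesis-associated gene on the germ cell list (position 87921244 of chromosome 1), with 199 reads, in Lrrc9 with 93, in the kinesin gene Kif27 with 46 and in the tubulin polyglutamylase gene Ttll13 with 38. A second Spata3 site had 282 reads in siPaf1 batch 2 and 6 in siCdc73 batch 2. For 17 sites over 90% of the knockdown reads came from siPaf1 batch 2, and for 16 of these the 3'-most exon of the gene had fewer than 20 siCtrl reads or no listed site.

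Fibronectin (Fn1), the extracellular matrix glycoprotein, held the most reads. Its 4 sites carried 4864 reads, 17.7% of all reads at the 467 sites. Site 1, in intron 26 of 45, had 0 and 0 reads in siCtrl, 261 and 359 in siPaf1, 596 and 1532 in siCdc73 and 2 in siSki8. In RPM these were 33.4 and 26.8 in siPaf1, 112 and 107 in siCdc73 and 0.241 in siSki8, so the siPaf1 and siCdc73 libraries did not overlap. Against the limit set by 0 siCtrl reads the pooled level was at least 167-fold higher in siPaf1 and at least 621-fold higher in siCdc73. Fn1 3'-most exon sites were read 1461 and 2903 times in siCtrl, 1749 and 1681 in siPaf1, 430 and 2328 in siCdc73 and 5324 in siSki8. Site 1 made up 13.0% and 17.6% of the reads of site and 3'-most exon together in siPaf1, 58.1% and 39.7% in siCdc73 and 0.038% in siSki8.

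The other Fn1 sites were read in the same libraries but in other proportions. Site 2, in intron 13, had 84 and 430 reads in siPaf1, 150 and 377 in siCdc73 and 2 in siSki8. Site 4, 30 bases downstream of it in the same intron, had 4 and 155 in siPaf1, 18 and 344 in siCdc73 and 1 in siSki8. The Fn1 site with 1 siCtrl read lay a further 29 bases downstream. Site 3, in intron 7, had 132 and 201 reads in siPaf1, 31 and 169 in siCdc73 and 16 in siSki8, and it was the site with the most siSki8 reads together with 1 in BC030336.

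Other hosts completed the 14 most read sites with siPaf1 batch 1 reads and at least 20 siCtrl reads in the 3'-most exon. Nufip2, which encodes an RNA-binding partner of FMRP, had a pair of sites in intron 2, the first with 65 and 84 reads in siPaf1, 48 and 268 in siCdc73 and 6 in siSki8. The other Nufip2 site had 42 and 101, 15 and 104, and 3. Msl2, a subunit of a histone H4 acetyltransferase complex, had 12 and 45 reads in siPaf1, 20 and 312 in siCdc73 and 1 in siSki8 at its site 1. Both Nufip2 sites and Msl2 site 1 were read above siSki8 in each siPaf1 and siCdc73 library on the RPM scale.

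Bcar3, an adaptor of integrin signalling with its site in intron 2 of 11, had 41 and 211 reads in siPaf1, 16 and 108 in siCdc73 and 3 in siSki8, 103036 bases upstream of its most read 3' site. Rgmb, a BMP co-receptor with its site in the last of 3 introns, had 9 and 179 in siPaf1, 11 and 170 in siCdc73 and 4 in siSki8. Pdk4, a kinase that inhibits pyruvate dehydrogenase (intron 2 of 10, chromosome 6, position 5444663), had 44 and 152 in siPaf1, 8 and 55 in siCdc73 and 5 in siSki8. For Rgmb the batches differed more than the knockdowns, whereas Pdk4 and Bcar3 were higher in siPaf1 than in siCdc73 within each batch. Mll5, a chromatin-associated SET domain protein with its site in intron 1 of 26, had 30 and 49 in siPaf1, 43 and 107 in siCdc73 and 3 in siSki8. Ercc3, the TFIIH helicase, had 4 and 67, 15 and 118, and 5. Utp6, a ribosome biogenesis factor (intron 7 of 19, chromosome 11, position 79768986), had 25 and 72, 17 and 85, and 4. Nrp1, a semaphorin and VEGF co-receptor with its site in intron 2 of 16, had 1 and 20 in siPaf1, 9 and 160 in siCdc73 and 0 in siSki8. These 4 sites were higher in siCdc73 than in siPaf1 within both batches, in the case of Utp6 by little (3.21 against 3.20 RPM in batch 1).

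**Figure D2:**
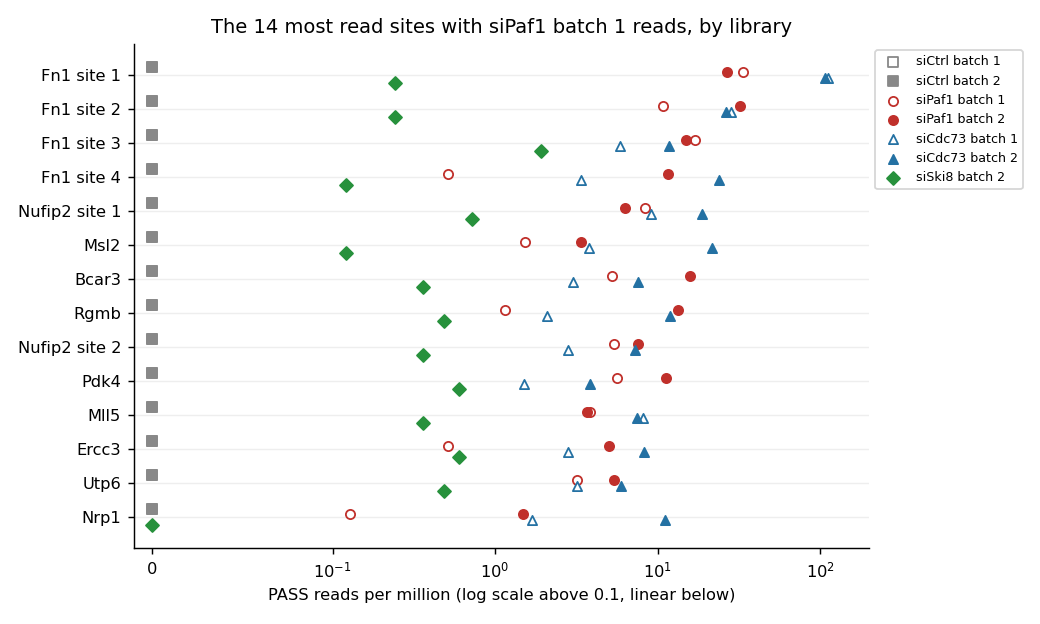
Level of the 14 sites in each library (horizontal axis, PASS RPM, logarithmic above 0.1), 1 row per site and 1 marker per library, with batch 1 open and batch 2 filled. All siCtrl markers lie at 0 by the rule, siSki8 lies between 0 and 1.93, and Fn1 site 1 reaches 112 in siCdc73 batch 1.

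As a share of the host's reads the sites were highest in siCdc73. For the 215 sites whose gene had at least 20 3'-most exon reads in every library, the site made up a median of 3.03% and 4.59% of the reads of site and 3'-most exon in siPaf1 batches 1 and 2, 7.11% and 6.19% in siCdc73 and 0% in siSki8. The share passed 10% at 40 and 51 of these sites in siPaf1, at 71 and 62 in siCdc73 and at 0 in siSki8, whose highest share was 9.62%. At Msl2 site 1 the share was 22.2% and 29.8% in siPaf1 and 32.3% and 70.6% in siCdc73, and at Mll5 it was 29.7% and 21.6% and 58.1% and 43.0%. Pdk4 showed the other order, with 39.3% and 61.0% in siPaf1 and 16.3% and 29.6% in siCdc73. It was not among the 215 sites, whose highest share in siPaf1 batch 2 was 30.9%.

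Of the 402 hosts, 351 had 1 site, 41 had 2, 6 had 3 and 4 had 4. Fn1, Ipo8 and Pcdh19 were among those with 4. Ipo8, a nuclear import receptor, had sites in introns 5, 8 and 24, of which that in intron 8 was the most read, with 2 and 8 reads in siPaf1, 10 and 67 in siCdc73 and 1 in siSki8. Pcdh19, a protocadherin, had 4 sites within intron 1 of 5, with 20 to 41 reads each. Msl2, with 3 sites in its only intron, also had a site with 1 and 0 reads in siPaf1, 6 and 46 in siCdc73 and 1 in siSki8 and another with 1 and 0, 8 and 18, and 0. In 264 hosts (65.7%) another intronic site was read in siCtrl, and 39 of the 467 sites lay within 200 bases of such a site. Of the 467 sites, 3 shared their position with a site listed for another gene.

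Hosts grouped by gene symbol were spread over functions. Matrix and adhesion genes made up 11 of 402 hosts (2.74%), against 1.60% of the 6706 genes with a listed intronic site. They were Fn1, the integrin subunit gene Itgav, Lama2, Col4a2, Col6a4, Col22a1, Adam10, Adam15, Adamts5, Cdh18 and Pcdh19, with 18 sites and 5533 reads, most of these in Fn1. Genes with ubiquitin ligase or peptidase symbols gave 12 hosts (2.99% against 2.19%), among them Fbxo32, Usp8 and Trim8. Zinc finger symbols gave 7 (1.74% against 2.49%), RNA-binding and splicing symbols 3 (0.746% against 0.910%, Hnrnpr, Rbm6 and Rbm26), and kinase symbols 3 (0.746% against 1.40%). These shares are counts with no test, and a symbol does not fix a function.

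The sites lay far upstream of the regular 3' end. For 440 sites with a listed 3'-most exon site in the gene, the median distance upstream of the most read one was 29681.5 bases (quartiles 13114.5 and 65670), and none lay downstream. For 400 of them the distance was over 5 kb and for 69 over 100 kb, and 27 sites had no listed 3'-most exon site. Intronic sites with at least 20 knockdown reads and 1 to 9 siCtrl reads (n = 1313 with such a 3' site) had a median of 24566 bases. Those with 10 or more siCtrl reads (n = 1800) had one of 18596 bases. Median knockdown reads were 37 and 91 in these classes, against 33 for the sites silent in siCtrl. The sites read in siPaf1 batch 1 had a median of 28248.5 bases and those not read there one of 34685 bases.

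**Figure D3:**
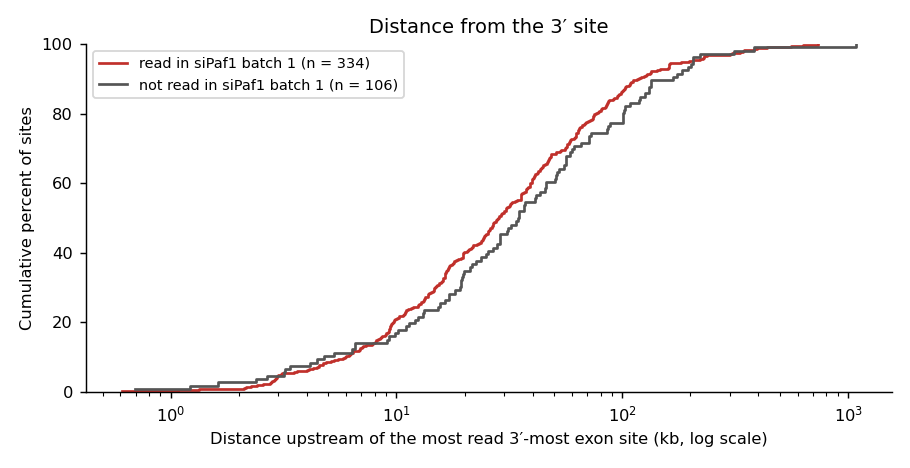
Cumulative percent of sites (vertical axis) by distance upstream of the most read 3'-most exon site of the gene (horizontal axis, kb, logarithmic), for sites read in siPaf1 batch 1 and not read there. The curves run close together, with medians of 28248.5 and 34685 bases.

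Toward the TSS the order was the same. The distance from the TSS to the 3'-most exon was cut into 5 equal sub-regions for the 458 sites placed in an intron of an annotated transcript. The sub-region nearest the TSS held 184 of these sites (40.2%, exact 95% binomial interval 35.7% to 44.8%), against 26.9% of sites with 1 to 9 siCtrl reads and 17.6% of those with 10 or more. The sub-region nearest the 3'-most exon held 11.8%, 18.9% and 28.7%. The share nearest the TSS was 43.6% for sites read in siPaf1 batch 1 and 30.2% for the rest, and 44.0% among the 284 sites that reached 20 reads with siPaf1 batch 2 left out. Read numbers differed between the classes, and with 20 to 49 knockdown reads the shares were 35.1%, 23.2% and 14.5%, and with 50 or more 54.1%, 33.6% and 18.8%. In both read ranges the order of the 3 classes was kept. Among sites with 0 siCtrl reads, the share also differed with siCtrl reads in the host's 3'-most exon. It was 47.0% (163 of 347) with 20 or more such reads, 16.7% (11 of 66) with 1 to 19 and 21.1% (4 of 19) with 0. With no listed 3'-most exon site it was 23.1% (6 of 26). Where the host was hardly read in siCtrl, 0 reads at the site need not mean an unused site. The 3 classes were not compared at equal host reads.

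**Figure D4:**
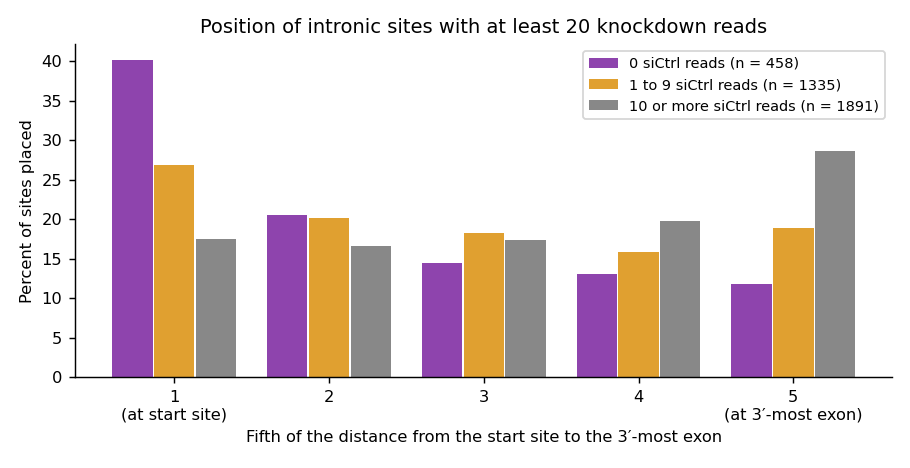
Percent of placed intronic sites with at least 20 knockdown reads (vertical axis) in each of 5 equal sub-regions from the TSS to the 3'-most exon (horizontal axis), by siCtrl reads. Sites with 0 siCtrl reads fall from 40.2% in sub-region 1 to 11.8% in sub-region 5, and those with 10 or more rise from 17.6% to 28.7%.

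Other features moved with the siCtrl class. The median distance from the TSS was 11293 bases for the 458 placed sites, 17943 for sites with 1 to 9 siCtrl reads and 23418 for those with 10 or more. From the 5' splice site of the intron it was 671, 973 and 1219 bases, and the share in the first intron was 25.8%, 19.3% and 12.4%. AATAAA was present at 45.0%, 51.1% and 59.2%, and no hexamer at 13.5%, 11.4% and 10.5%. An annotated transcript end lay within 50 bases of 6.90%, 9.0% and 20.5% of the sites with an annotated gene (464, 1344 and 1909 sites). At least 7 A downstream were found at 0.428%, 2.35% and 5.96%. The sites silent in siCtrl thus lay nearer the TSS and the 5' splice site, and had the canonical hexamer and an annotated end less often as counted, with no test.

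Levels in siPaf1 and siCdc73 were compared site by site. The rule used the sum over all 5 knockdown libraries, 23 of the sites had no siPaf1 read and 25 no siCdc73 read, and the counts below describe these sites. In edgeR's quasi-likelihood test over 29348 sites with at least 20 reads, without a batch term, 0 of the 467 sites had a Benjamini-Hochberg adjusted p under 0.05 (0.00% of all sites in either direction). DESeq2 called 4 of the 467 higher in siCdc73, out of 71 to which it gave an adjusted p (0.503% of all sites with one), and 0 higher in siPaf1 (0.574%). At an unadjusted p under 0.05, 54 sites (11.6%) were higher in siCdc73, against 3.41% of all sites, and 16 (3.43%) were higher in siPaf1, against 4.70%. With the batch as a block, edgeR called 28 sites (6.0%) higher in siCdc73, against 4.08% of all sites. It called 9 (1.93%) higher in siPaf1, against 5.48%. Sites with no read in siPaf1 or in siCdc73 met the rule through the other libraries, so nothing is read from these shares. The median log2 fold change of siPaf1 over siCdc73 was -0.45 for the 467 sites and 0.04 for all sites, and with groups at 0 reads set to their limit it was -0.23. Among the 266 sites that met the rule without siCdc73 batch 2 the median was 0.57, and among the 284 that met it without siPaf1 batch 2 it was -1.38.

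Some sites separated the knockdowns in both batches. RPM in both siCdc73 libraries exceeded those in both siPaf1 libraries at 142 of the 467 sites (30.4%), against 14.7% of all sites. The reverse held at 87 (18.6%), against 23.3%. The rule summed these same libraries, so nothing is read from these shares either. Gtf3c1, a subunit of the RNA polymerase III factor TFIIIC, had 0 and 0 reads in siPaf1, 16 and 69 in siCdc73 and 0 in siSki8. Smg6, the endonuclease of nonsense-mediated decay, had 1 and 0 in siPaf1, 18 and 91 in siCdc73 and 1 in siSki8. Azi2, an adaptor of innate immune kinases, had 19 and 36 reads in siPaf1 and 0 in all other libraries. Prkra, an activator of the kinase PKR, had 12 and 49 in siPaf1, 0 and 1 in siCdc73 and 1 in siSki8. The 4 sites were thus read in 1 knockdown in both batches and hardly or not at all in the other. They met the rule through that knockdown alone, and their reads are given with no test.

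With the block, Fn1 site 1 differed by -2.03 ± 0.34 SE on the log2 scale (edgeR adjusted p = 3.18e-07), lower in siPaf1. Fn1 site 4 (edgeR adjusted p = 0.018), Msl2 site 1 (0.00173) and Nrp1 (0.00156) were also called lower in siPaf1 with the block. Fn1 sites 2 and 3, both Nufip2 sites, Bcar3, Rgmb, Pdk4, Mll5, Ercc3 and Utp6 were not called. Of the 9 sites called higher in siPaf1, 6 were read in siPaf1 batch 1, and the other 3 were those in Lrrc9 and Spata3, read in batch 2 alone. Of the 28 called higher in siCdc73, 10 had no siPaf1 read in either batch. Of the 9, 5 had no siCdc73 read.

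**Figure D5:**
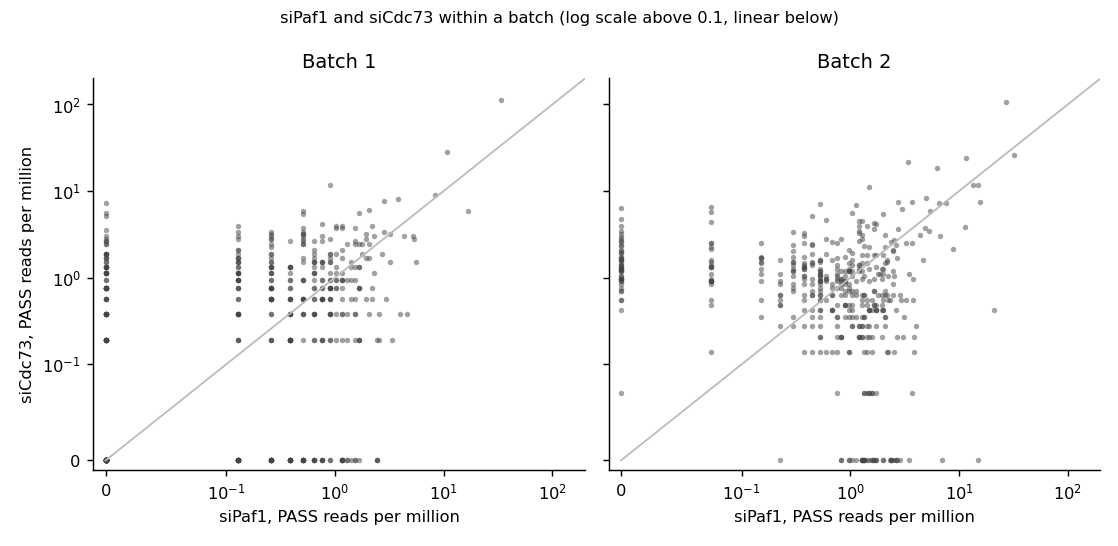
Level of each of the 467 sites in siCdc73 (vertical axis) against siPaf1 (horizontal axis) within batch 1 (left) and batch 2 (right), in PASS RPM, logarithmic above 0.1, with the line of equal levels. In batch 1, 246 sites lie above the line and 176 below, and in batch 2, 245 and 222.

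Reads in siSki8 were few at the sites. siSki8 gave 1 of the 5 libraries that the rule summed, and 261 of the 467 sites had no siSki8 read, so the choice of the sites bears on the direction of these comparisons and nothing is read from the shares. The siPaf1 libraries were above siSki8 in RPM at 330 and 390 of the 467 sites in batches 1 and 2, and the siCdc73 libraries at 326 and 396. The siSki8 group was 1 library, and edgeR and DESeq2 took its spread from the other groups. Without the batch term edgeR called 0 of the 467 sites in either comparison (0.00% of all sites). DESeq2 called 5 higher in siPaf1 (of 26 with an adjusted p, against 1.92% of all sites with one) and 10 higher in siCdc73 (of 25, against 1.69%), and 0 lower (against 0.605% and 0.430%). Unadjusted p in edgeR was under 0.05 at 66 sites for siPaf1 over siSki8 (14.1%, against 5.06% of all sites) and at 90 for siCdc73 over siSki8 (19.3%, against 4.57%), and at 0 sites in the other direction (against 3.39% and 3.22%). With the block, 41 sites (8.78%, against 6.30%) were called higher in siPaf1 and 49 (10.5%, against 4.00%) higher in siCdc73, 29 of them in both, and 0 were called lower (against 3.88% and 3.45%). Of the 41, 38 were read in siPaf1 batch 1.

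Some sites had siSki8 reads at a level near that of another knockdown. BC030336 had 16 and 50 reads in siPaf1, 2 and 14 in siCdc73 and 16 in siSki8, and Sync, which encodes a muscle intermediate filament protein, had 2 and 14, 0 and 4, and 10. Gnptab, which acts in lysosomal enzyme targeting, had 1 and 0 in siPaf1, 3 and 28 in siCdc73 and 9 in siSki8, Zfyve1 had 0 and 0, 2 and 23, and 3, and Adamts5, an aggrecan-cleaving protease, had 3 and 17, 0 and 0, and 2. In none of these 5 was the difference from siSki8 called, with or without the block.

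Pdcd6ip, Gpc6 and Snx18, genes named by the study, were hosts. Pdcd6ip, which encodes the ESCRT partner ALIX, had a site in intron 12 of 17 (chromosome 9, position 113572957) with 6 and 11 reads in siPaf1, 16 and 40 in siCdc73 and 1 in siSki8, and a site in intron 3 with 42 reads in all. The glypican gene Gpc6 had 25 reads at a site 736521 bases upstream of its 3' site, and the sorting nexin gene Snx18 had 24. No difference between knockdowns at these 4 sites was called.

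The siRNAs lowered their targets in RNA-seq. Paf1 had 107 and 160 CPM (counts-per-million, normalised to the TMM-scaled total of the genes that passed the filter) in siCtrl and 20.3 and 31.1 in siPaf1. Cdc73 had 109 and 98.4 in siCtrl and 14.2 and 22.0 in siCdc73, and Wdr61 had 49.8 and 129 in siCtrl and 5.97 in siSki8. Paf1 mRNA was above both siCtrl values in siCdc73, at 264 and 418 CPM. RNA-seq counts took no part in choosing the sites. Counts were per transcript over the coding region, and 195 of the 402 hosts were among the 9999 genes of that table, 183 of which passed the filter on low counts. In these bulk cultures fewer cells of a kind and less RNA per cell cannot be told apart.

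Host gene RNA was then compared with siCtrl. Without the batch term edgeR called 0 of 183 hosts in each knockdown (0.00% of 6521 genes), while DESeq2 called 6 higher and 7 lower in siPaf1 (3.28% and 3.83%, against 2.68% and 3.30% of all genes to which it gave an adjusted p). In siCdc73 DESeq2 called 11 higher and 6 lower (6.18% and 3.37% of 178 hosts, against 4.23% and 4.55%), and in siSki8 0 and 1 (against 0.0460% and 0.0307%). At an unadjusted p under 0.05, 20 hosts were higher and 11 lower in siPaf1 (10.9% and 6.01%, against 8.77% and 8.96% of all genes), 22 and 22 in siCdc73 (12.02% each, against 9.94% and 11.2%) and 3 and 6 in siSki8 (1.64% and 3.28%, against 2.45% and 3.08%). With the block, 43 hosts (23.5%, against 16.3% of all genes) were called higher and 31 (16.9%, against 16.2%) lower in siPaf1. In siCdc73, 45 (24.6%, against 19.4%) were higher and 40 (21.9%, against 20.5%) lower, and in siSki8, 3 (1.64%, against 2.93%) were higher and 5 (2.73%, against 2.50%) lower. The median log2 fold change of the hosts was 0.05, 0.11 and -0.05, against 0.01, -0.02 and -0.02 over all genes, and that for siSki8 was 0.07 with the block. The 3 comparisons share the siCtrl libraries.

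The hosts with the smallest adjusted p in siPaf1 were Ypel1 (1.3 and 1.3 CPM in siCtrl, 22.0 and 57.2 in siPaf1, log2 difference 4.58 ± 0.61 SE, edgeR adjusted p = 0.075, with the block 3.91e-09) and Pappa, a protease of IGF-binding proteins (1.8 and 3.0 against 12.5 and 17.4 CPM, 2.46 ± 0.53 SE, edgeR adjusted p = 0.0952, with the block 3.42e-05). Lower were Kif18a, a mitotic kinesin (139 and 214 against 37.4 and 37.0 CPM, -2.24 ± 0.39 SE), and the DNA repair gene Rad50 (224 and 216 against 47.6 and 35.9 CPM, -2.38 ± 0.42 SE), both called with the block. The Kif18a site had 3 and 5 reads in siPaf1 and 3 and 19 in siCdc73, and the Rad50 site had 3 and 19 and 1 and 2.

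In siCdc73, Sat1, the polyamine acetyltransferase, had 75.9 and 156 CPM in siCtrl and 435 and 983 in siCdc73 (2.61 ± 0.55 SE, edgeR adjusted p = 0.074, with the block 3.8e-09). Amy1, which shares near-identical copies in the genome and is uncertain for that reason, had 0.3 and 0.3 against 4.8 and 5.4 CPM. Loxl2, a collagen crosslinking enzyme, had 166 and 223 against 25.1 and 38.6 CPM (-2.60 ± 0.45 SE), and Eva1c had 57.0 and 56.5 against 15.0 and 13.4 CPM. These 4 genes were named because they had the smallest adjusted p among the hosts, up to 2 per direction, and each was called with the block. In siSki8 the magnesium transport gene Cnnm2 and Utp6 had the smallest p among higher hosts, at 1.18 ± 0.41 SE and 1.02 ± 0.40 SE, and the Wnt inhibitor gene Sfrp2 and the protocadherin gene Fat4 among lower ones, at -3.45 ± 0.90 SE and -1.98 ± 0.63 SE, each with an edgeR adjusted p of 0.781 without and 0.0458, 0.0464, 0.000741 and 0.0091 with the block.

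Of the most read hosts, Fn1 had log2 differences of -0.39 ± 0.40 SE in siPaf1 and -0.57 ± 0.40 SE in siCdc73 (edgeR adjusted p = 0.696 and 0.45, with the block 0.124 and 0.0198). Nufip2 differed by 0.09 ± 0.50 SE and 0.28 ± 0.50 SE, and Bcar3 by -0.42 ± 0.33 SE and -0.13 ± 0.33 SE, none of them called with or without the block. Rgmb differed by 1.54 ± 0.50 SE and 1.05 ± 0.50 SE and was called higher in both with the block (edgeR adjusted p = 9.23e-05 and 0.00497). Msl2, Pdk4, Nrp1, Mll5 and Ipo8 were not among the genes tested.

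Factors known to affect intronic polyadenylation, and the nuclear exosome, which degrades short nuclear RNAs, were followed in the same RNA-seq fits. Of 12 such factors (U1 snRNP proteins, Cdk12, Cdk13, Ccnk, Scaf4, Scaf8, Pabpn1, CFI and Pcf11) 3 were tested. Without the block 0 of the 3 were called in any knockdown. Pcf11, a termination factor, differed by -1.12 ± 0.36 SE in siPaf1 and -0.77 ± 0.35 SE in siCdc73. Snrnp70, a U1 protein, differed by 0.13 ± 0.38 SE and 0.87 ± 0.38 SE, and Ccnk by 0.68 ± 0.44 SE and 0.50 ± 0.44 SE. With the block, 1 of the 3 was called higher and 1 lower in each of siPaf1 and siCdc73. The higher one was Ccnk in siPaf1 (edgeR adjusted p = 0.0349) and Snrnp70 in siCdc73 (0.00362), and the lower one was Pcf11 in both. Of all genes, 16.3% were called higher and 16.2% lower in siPaf1, and 19.4% and 20.5% in siCdc73. Of 18 exosome and adaptor genes 9 were tested, 0 were called without the block, and with it 1 was higher and 2 were lower in siPaf1, 2 and 2 in siCdc73 and 1 and 0 in siSki8, where 2.93% and 2.50% of all genes were called. The exosome list had a median log2 difference of -0.42, 0.10 and 0.54 in the 3 knockdowns without the block.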

How the data were processed

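Per the labels, 3'READS and RNA-seq libraries came from C2C12 cells. The deposited values used here are raw counts per pA site, or per RefSeq transcript, which the authors made from Bowtie2 alignments to mm9 (unique hits with a mapping quality above 10, and for 3'READS with untemplated Ts). Deposited RPKM columns, computed by the authors from the same RNA-seq reads, and the authors' column of summed reads were not used here. The 52 ChIP-seq samples were not used here. Depth was 5302728 to 14340927 PASS reads and 2796693 to 8160386 RNA-seq counts (1 transcript a gene, the one with the highest mean count). Counting intervals and limits cover counting error only.

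The members and lists were chosen with earlier results of these data known. RPM was computed on all PASS reads of a library. Sites were placed on GENCODE transcripts of mm9 (the transcript with the most exons spanning the site in an intron), and sequence was read from the same build. Counts were tested with edgeR 4.0.16 (no batch term, since the study's methods name none, TMM, quasi-likelihood, prior count 2, all 7 libraries, R 4.3.3), with Benjamini-Hochberg adjustment over all features tested, and with DESeq2 1.42.0 as an alternative. The edgeR code was checked on simulated counts with less spread than these libraries. That check does not show how many changes would be recovered at the spread of these data. SEs were derived from the log2 change and its F value. Python 3.11.15, pandas 2.3.3 and pysam 0.24.0 handled tables and sequence. Libraries with the same number in their labels were taken as 1 batch. Differences between batches correlated across features between groups (r of 0.413 to 0.521 for sites and 0.620 to 0.748 for genes, given as a check).

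Sites were named by a rule: the 14 most read sites with a siPaf1 batch 1 read and 20 siCtrl reads in the 3'-most exon, the 4 most read in siPaf1 batch 2 alone, the 3 with the most siSki8 reads, the 5 hosts with the most sites, up to 2 per direction and contrast by adjusted p, hosts the study names and sites at the thresholds. The second Spata3 site and the hosts listed by symbol were named after their values were seen. A host and a gene group that these rules name are not reported here. The alternatives were other read minima, scalings, filters and tests, a batch block and each library left out.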

Additional observations from a re-analysis of the deposited data

Results flagged for a closer look

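Other kinds of site met the same rule of 0 siCtrl and at least 20 knockdown reads. Upstream antisense transcripts gave 83 such sites of 671 (12.4%), with 34.7 and 125 RPM in siPaf1, 54.1 and 58.7 in siCdc73 and 8.68 in siSki8. Internal exons gave 19 of 196 (9.69%), with 8.06 and 33.1, 22.3 and 14.8, and 3.5 RPM. The levels at these site kinds were not tested.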

How the results depend on the processing

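The number of sites was 1243 with a minimum of 10 reads and 122 with one of 50, and ranged from 266 to 1070 when a library was left out (284 without siPaf1 batch 2, 266 without siCdc73 batch 2, 731 and 1070 without siCtrl batch 1 and 2). Leaving out sites with at least 7 A in the 10 bases downstream, or counting sites within 50 bases once, gave 465 and 464. The share nearest the TSS was 35.1% among sites with 20 to 49 reads, and the median distance from the 3' site stayed inside its interval. With the replicate block, edgeR calls rose from 0 to 37, 41 and 49 sites for siPaf1 against siCdc73, siPaf1 against siSki8 and siCdc73 against siSki8, and from 0 to 74, 85 and 8 host genes in siPaf1, siCdc73 and siSki8. DESeq2 gave 4, 5 and 10 sites and 13, 17 and 1 host genes. With no filter, edgeR gave 12, 6 and 9 sites and 3 and 8 host genes in siPaf1 and siCdc73. Leaving out a library gave 0 to 1 host genes in siPaf1 (1 without siCdc73 batch 1 or 2). The cause of these differences was not tested. The median of the sites for siPaf1 against siCdc73 ranged from -1.38 to 0.57 with a library left out and the sites chosen anew (0.57 for 266 sites without siCdc73 batch 2, -1.38 for 284 without siPaf1 batch 2). The median of the hosts in siCdc73 was -0.10 to 0.28 (-0.02 without siCtrl batch 2 and -0.10 without siCdc73 batch 1), and with the alternative of library size alone, chosen after seeing the data, it was -0.052, under which the median of all genes fell by 0.16. Few reads per site, 1 siSki8 library and 2 libraries in each other group limit the tests.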
